A study of Mus musculus with 2 samples.

Results

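Keratins are the intermediate filament proteins of epithelial cells. A type I and a type II chain pair along a helical rod to build the filament. The simple epithelial pairs, such as Krt8 with Krt18, form the filaments of single-layered epithelia including those of the airways, while other pairs mark stratified epidermis or hair. Keratin-associated proteins (Krtap) are small matrix proteins that cross-link the hair keratins. In the mouse these genes lie in dense clusters, with type I keratins and some Krtap genes on chromosome 11, type II keratins on chromosome 15 and further Krtap genes on chromosome 16. CTCF is a zinc-finger protein that binds an asymmetric DNA motif and, with cohesin, anchors chromatin loops, most often between motifs that point toward each other.

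The genes described here were the protein-coding genes of GENCODE release M21 whose symbols are Krt followed by a digit or start with Krtap. The rule took 110 of 21938 protein-coding genes, 53 Krt and 57 Krtap genes. CTCF ChIP-seq had been made from 2 replicates of 1 group, the lungs of B6NCrl mouse embryos of both sexes at day 14.5, with no genetic change or treatment named. Lungs from several dissections were pulverised and pooled, and both replicates carry the same biosample record. The difference between them may therefore be technical only. A site is the summit of a peak in the optimal list, which the authors thresholded by the irreproducible discovery rate (IDR); 54943 sites on mm10 were used. The signal of a site is the authors' enrichment value for its peak. It is given for the optimal list first and then for each replicate's own list. In whole lung a weak site held by every cell and a strong site held by few cells cannot be told apart. Peak lists measure no expression, so the tissue label was not checked against marker genes, and the number of reads behind each signal is unknown.

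The 3 clusters span chr11:99232761-100269871 with 50 member genes from Krt222 to Krt42, chr15:101347444-102032027 with 26 from Krt80 to Krt18, and chr16:88610705-89571183 with 24 from Krtap24-1 to Krtap11-1. The remaining 10 members are Krtap genes on chromosomes 1, 7 and 10. A total of 70 sites lay inside the clusters and 43 within 100 kb of their edges. Of these 113 sites, 105 had a summit within 50 bp in both replicate lists. The median ratio of replicate 1 to replicate 2 signal was 1.19 for them, against 1.23 over the genome. In the plot of the signals of both replicates the strong sites lie close together along the diagonal, and the sites below about 30 in either replicate scatter more.

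**Figure D1:**
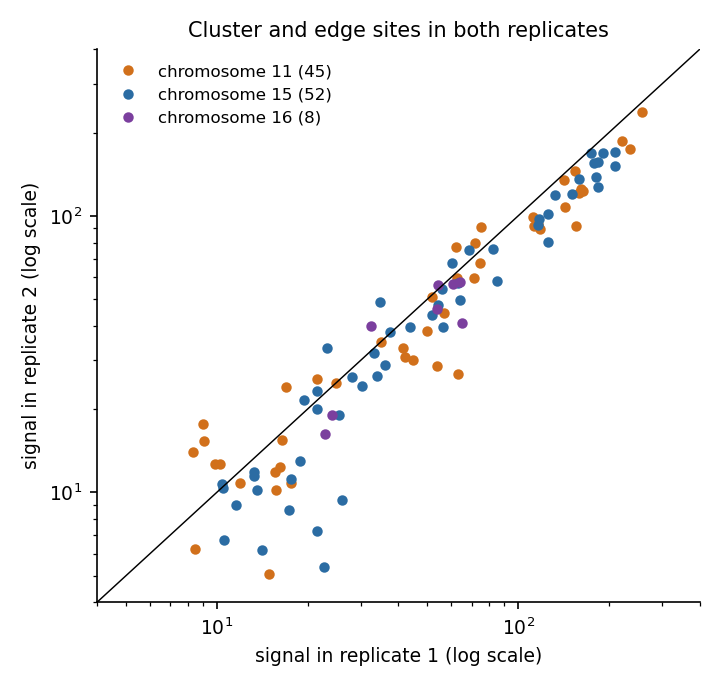
Signal of the 105 cluster and edge sites found in both replicates, replicate 1 on the x axis and replicate 2 on the y axis (log scales, unscaled values of each replicate's own list), with the line of equality. Points are single sites coloured by chromosome, and strong sites differ less between replicates, in proportion, than weak ones.

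A CTCF motif matrix of 20 bases, with the consensus TNNCCACCAGGGGGCGCNNN, was learned from strong sites of odd-numbered autosomes, which include chromosomes 11 and 15, and its best match within 50 bp of a summit gives the strand of a site. A match on the plus strand points toward higher coordinates. The sequences that follow come from the GRCm38 assembly that mm10 names, and each is written along its motif strand with the 20-base match in capitals. The first set holds strong motif-bearing sites within 100 kb outside the clusters of chromosomes 11 and 15, and between Krt78 and Krt8.

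Krt42 side of the chromosome 11 cluster, strongest, minus strand, capitals at chr11:100295493-100295512: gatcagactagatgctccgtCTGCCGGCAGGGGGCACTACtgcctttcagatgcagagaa

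Nearest site beyond Krt42, minus strand, capitals at chr11:100282178-100282197: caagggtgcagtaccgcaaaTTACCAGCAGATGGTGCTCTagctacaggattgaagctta

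Its neighbour, plus strand, capitals at chr11:100282767-100282786: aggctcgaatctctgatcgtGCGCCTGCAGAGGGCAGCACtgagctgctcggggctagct

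Krt222 side, in a Ccr7 intron, minus strand, capitals at chr11:99150100-99150119: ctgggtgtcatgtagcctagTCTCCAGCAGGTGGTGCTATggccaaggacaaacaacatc

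Krt80 side of the chromosome 15 cluster, plus strand, capitals at chr15:101339727-101339746: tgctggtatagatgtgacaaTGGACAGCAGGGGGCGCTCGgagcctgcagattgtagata

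Between Krt78 and Krt8, strongest, minus strand, capitals at chr15:101973829-101973848: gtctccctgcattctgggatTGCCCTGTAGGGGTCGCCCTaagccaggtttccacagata

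Between Krt78 and Krt8, next in signal, minus strand, capitals at chr15:101984508-101984527: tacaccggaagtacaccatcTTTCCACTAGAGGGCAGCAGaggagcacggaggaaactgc

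Between Krt78 and Krt8, after that, plus strand, capitals at chr15:101988281-101988300: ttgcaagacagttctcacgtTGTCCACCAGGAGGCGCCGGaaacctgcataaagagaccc

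Few keratin gene starts had a CTCF site. Of the 110 members, 2 (1.82%, 95% Wilson interval 0.50 to 6.39) had a site within 1 kb of the transcription start site (TSS). The share among all protein-coding genes was 26.6%. Both were type II keratins of chromosome 15, which gives 2 of 53 Krt genes (3.77%) and 0 of 57 Krtap genes. A count of 0 allows a Krtap share of up to 6.31% by the Wilson interval, or up to 5.26% with 3 counts taken as the limit. Intervals and this limit cover counting error only. No test was run, since with 1 group the lists hold no contrast between conditions.

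Krt8, the type II keratin of simple epithelia, had its site 31 bp downstream of the TSS, in the 5' untranslated part of exon 1 (peak chr15:102004383-102004487). Its signal was 98.0, with 56.4 in replicate 1 and 39.5 in replicate 2, and it lay at percentile 62.9 of all sites. No motif match lay within 50 bp of this summit. The second gene was Krt78, a type II epithelial keratin, with a site in the coding part of exon 1, 315 bp downstream of the TSS. That site had a signal of 15.9, at percentile 3.01, with 13.6 in replicate 1 and no summit in replicate 2, and it carried a motif on the minus strand. The Krt8 site was thus a mid-ranked site present in both replicates, and the Krt78 site was among the weakest listed.

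The members next nearest to the 1 kb limit were Krtap5-1 on chromosome 7, with a site 1528 bp from its TSS, and Krtap14 on chromosome 16, with one at 2246 bp. Within 5 kb, 9 Krt genes (17.0%) and 6 Krtap genes (10.5%) had a site, against 44.8% of all protein-coding genes. Extending the search to the whole pooled list, which holds 300000 peaks of any strength, gave 17 of 110 members with a peak within 1 kb, against 62.1% of all genes. Among those 17 peaks the strongest after Krt8 was at Krt87, a hair keratin, with a pooled signal of 18.96. The others besides Krt78 had pooled signals between 5.14 and 9.56.

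Krt genes as a family lay nearer to a site than Krtap genes, though not in every class. The median distance from TSS to site was 9.39 kb for Krt genes and 22.5 kb for Krtap genes, against 6.70 kb over all protein-coding genes. By class, type I hair keratins had a median of 20473 bp and type II keratins of the inner root sheath 29164 bp, whereas Krtap genes had 19118 bp on chromosome 11 and 7959 bp on chromosome 7. No Krt gene lay more than 50 kb from a site, whereas 16 of 57 Krtap genes (28.1%) did, and the share over all genes was 15.3%. The longest distance of any member was 267417 bp, at Krtap20-2 on chromosome 16. On chromosome 11 it was 91650 bp, at Krtap4-6. Among keratins it was 37873 bp for the type I hair keratin Krt36 and 29458 bp for Krt73, a type II keratin of the inner root sheath. Members shared sites, as 51 different sites were nearest to all 110. In the plot of cumulative distance the Krt curve stays under the curve of all genes up to about 10 kb and passes it beyond, while the Krtap curve stays under it over most of the range.

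**Figure D2:**
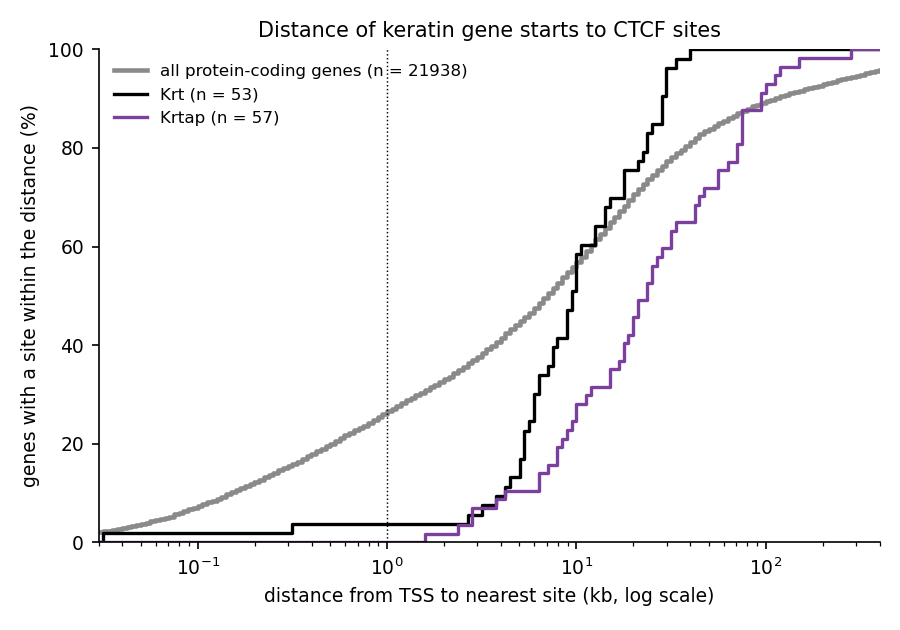
Share of genes with a CTCF site within a given distance of the TSS (x axis in kb, log scale) for 53 Krt genes, 57 Krtap genes and all 21938 protein-coding genes. The dotted line marks 1 kb, where 3.77% of Krt genes, 0% of Krtap genes and 26.6% of all genes have a site.

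Promoter sequence differed along with these counts. The median ratio of observed to expected CpG within 1 kb of the TSS was 0.215 for the members and 0.474 for all protein-coding genes. With all genes split into 4 equal groups by this ratio, 50 members lay in the lowest and 58 in the next, where 3.30% and 21.1% of all genes had a site. Of the members 1 had a site in each of these groups, so in the second it was 1 of 58. The next group up held 2 members and the highest none, and there the shares over all genes were 40.9% and 41.1%. A motif match within 1 kb of the TSS was found for 10 of 110 members (9.09%), of which 2 had a site within 1 kb. Over all genes 18.4% had a match, and 58.7% of those had a site. The site did not have to lie at the match in these counts, and the Krt8 site had no match within 50 bp. The part of CpG content in the low count was not tested.

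The simple epithelial keratins were described apart, because lung epithelium uses them. Besides the Krt8 site, Krt7 held sites 3084 bp downstream of its TSS in the coding part of exon 2 (signal 61.4, replicates 34.04 and 26.3) and 10072 bp downstream in an intron (signal 102, replicates 54.1 and 47.7). Krt19, a type I keratin of simple epithelia, had an intronic site 3644 bp downstream with a signal of 22.3. The replicate signals of 14.9 and 5.07 differed by more than 1.5 times (ratio 2.94). This site was not in the conservative IDR list. Krt18, the type I partner of Krt8, had its nearest site 9915 bp upstream, between the 2 genes, with a signal of 109 and replicates of 56.0 and 54.2. The median distance for these 4 genes was 3364 bp, and each had a site within 10 kb, as did 58.5% of Krt genes and 56.8% of all protein-coding genes.

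A group of strong sites lay between the rest of the chromosome 15 cluster and its last genes, Krt8 and Krt18. The 42.4 kb between Krt78 and Krt8 held 7 sites, a density of 16.5 per 100 kb, with a median signal of 249. From Krt80 to Krt78 the density was 4.45 per 100 kb with a median signal of 43.1, and over the chromosome outside the cluster and its edges it was 2.25 per 100 kb with a median of 65.9. The strongest sites of this interval had signals of 353 (replicates 209 and 151), 340 (184 and 157) and 316 (181 and 138), and their sequences are the last 3 printed above. Further strong sites there reached 249 and 227. Each of these 5 sites ranked among the 7412 strongest of all sites. Of the 7 sites 5 carried a motif, 4 of them on the minus strand, and 5 of the 10 motif matches in the interval lay within 50 bp of a summit. The interval was not among the regions planned beforehand. Dense strong sites also lay beyond Krt42 on chromosome 11 (15 per 100 kb, median signal 162). On the Krt80 side of chromosome 15 there were 10 per 100 kb (median 144). The remaining edges had lower medians or no site.

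The chromosome 15 cluster as a whole held 36 sites, or 5.26 per 100 kb. Other strong sites inside it lay between Krt71 and Krt72, keratins of the inner root sheath, with a signal of 295 (replicates 159 and 136), and between Gm49425 and the hair keratin Krt84 with 270 (150 and 120). The site at 295 had no motif match within 50 bp.

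The type I keratins on chromosome 11 were divided by their Krtap genes into stretches of different density. From Krt222 to Krt40 there were 15 sites, or 4.83 per 100 kb, and from Krt33a to Krt42 there were 7, or 2.71 per 100 kb. Between them, from Krtap3-3 to Krtap17-1, 443.87 kb held 3 sites, or 0.676 per 100 kb, against 3.45 per 100 kb over the rest of the chromosome. These stretches run from gene to gene and leave out the sites in the spaces between them. Left out were a site of 15.7 between Krt40 and Krtap3-3 and sites of 212 and 75.8 between Krtap17-1 and Krt33a. The strongest sites inside the cluster lay between Krtap3-1 and Krtap1-5 (signal 284, replicates 164 and 123), between Krt20 and Krt23 (283, with 159 and 121), and between Krt19 and Krt9, the keratin of palm and sole skin (246, with 156 and 91.9). Another 2, with 212 and 205, lay beyond Krtap17-1 and beside the site between Krt20 and Krt23. All of these were between genes rather than at their starts.

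**Figure D3:**
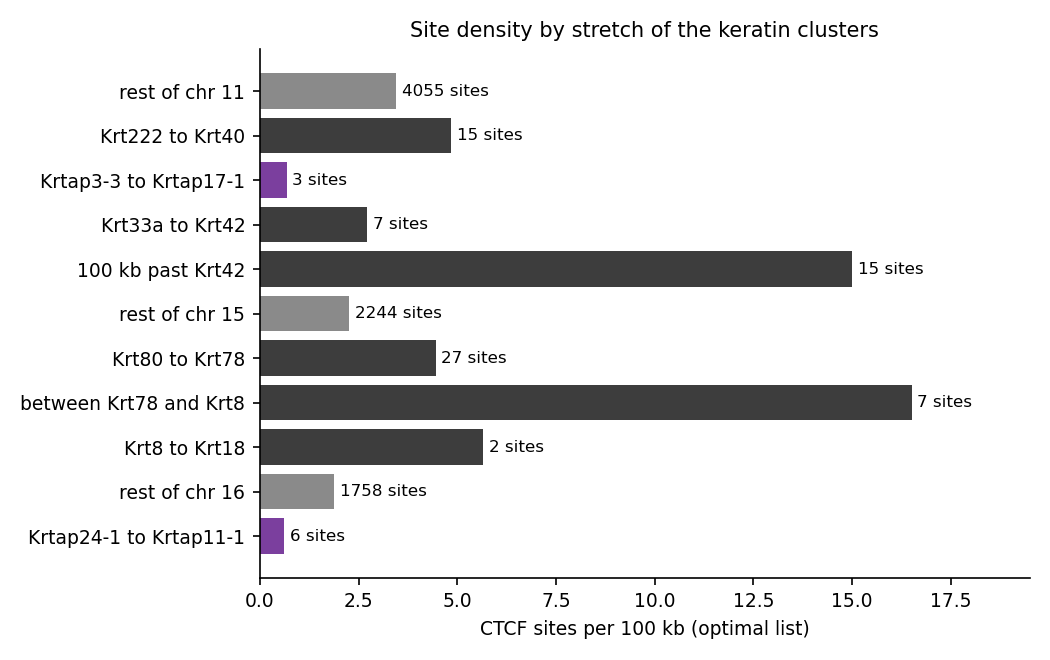
CTCF sites per 100 kb (x axis) in stretches of the 3 clusters, with the rest of each chromosome outside the cluster and its edges in light grey, stretches of Krtap genes in purple and other stretches in dark grey. The Krtap stretches, each from its first to its last Krtap gene, have 0.676 and 0.625 sites per 100 kb. The interval between Krt78 and Krt8 has 16.5.

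Krtap genes lay in the longest stretches without a site. On chromosome 16, 6 sites were spread over 960.48 kb, or 0.625 per 100 kb, against 1.87 over the rest of the chromosome. From Krtap16-3 to Krtap7-1 no site occurred for 579 kb, a stretch with 10 members and 18 protein-coding TSSs in all. It ranked 15 of 1765 gaps between neighbouring sites on the chromosome, by length. On chromosome 11 the stretch from Krtap1-5 to Krtap4-16 ran for 280 kb without a site and held 13 members, and it ranked 31 of 4103 gaps. The stretches contained 16 and 14 motif matches without a site, or 2.76 and 5.00 per 100 kb, against 5.65 and 8.95 over the rest of chromosomes 16 and 11. Most matches lacked a site there too, as 20.8% and 24.0% lay within 50 bp of a summit. The strongest peaks of the whole pooled list in them had signals of 17.8 and 20.4. Pooled peaks came to 2.76 and 5.36 per 100 kb there, against 10.8 over chromosome 16 and 17.3 over chromosome 11. The stretches were chosen for holding no site, which left out most strong pooled peaks beforehand. The chromosome values also count the peaks at sites, so these differences were partly fixed by the choice.

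Some Krtap genes are close copies of each other, and reads that match several copies may not be placed. In the stretches on chromosomes 16 and 11, 80.3% and 79.7% of 32-base words occurred once in the genome, against 86.4% and 88.6% in a sample of positions over the same chromosomes. From Krt222 to Krt40 and from Krt33a to Krt42 the shares were 93.2% and 93.7%. Within 1 kb of the TSS the median share was 88.1% for Krtap genes (30.2 to 100%) and 96.5% for Krt genes (65.7 to 100%). How the aligner treated repeated words is not given in the sources used here, and the part of mappability in the low density was not tested.

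The 6 sites inside the chromosome 16 cluster had signals between 40.2 and 121, and all 6 had a motif. The strongest lay between Krtap7-1 and Krtap11-1 (121, replicates 64.2 and 57.5), followed by one 17769 bp from Krtap19-1 (115, replicates 60.7 and 56.7) and one within the overlapping genes Krtap14 and Krtap15 (107, replicates 65.0 and 41.1). Sites near Krtap26-1 and Krtap19-9b had 73.4 and 43.8. With the 2 sites on the outer side of Krtap24-1, 7 of 8 motifs lay on the minus strand. The next set shows the 3 strongest sites of this cluster, all of the minus strand.

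Between Krtap7-1 and Krtap11-1, capitals at chr16:89517819-89517838: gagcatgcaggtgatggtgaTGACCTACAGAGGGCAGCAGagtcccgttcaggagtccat

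Near Krtap19-1, capitals at chr16:88851632-88851651: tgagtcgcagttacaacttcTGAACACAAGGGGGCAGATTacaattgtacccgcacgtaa

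In Krtap14 and Krtap15, capitals at chr16:88823890-88823909: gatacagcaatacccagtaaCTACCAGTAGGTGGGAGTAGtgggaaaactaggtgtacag

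The borders of the clusters were unlike each other. Beyond Krt42 on chromosome 11, 15 sites lay within 100 kb, and 11 of their 14 motifs pointed toward the cluster. The strongest site around any of the clusters lay there, 24355 bp upstream of Eif1, a translation initiation factor gene, with a signal of 491 (replicates 258 and 237); it was number 64 of all sites. Nearer the cluster, 12318 bp upstream of Krt42, a site of 407 (220 and 186) pointed inward and its neighbour of 251 (143 and 108), 586 bp farther out, pointed outward. Sites of 299 and 275 followed on the minus strand. The 7 sites past Eif1, most of them nearest to the TSS of Hap1, a huntingtin-associated protein gene, had signals from 22.9 to 284.

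On the Krt222 side there were 6 sites. One lay in an intron of the chemokine receptor gene Ccr7, 82648 bp beyond Krt222. Its signal was 409 (235 and 174), and it pointed away from the cluster. Another 3, weaker, pointed toward it with signals of 11.04, 135 and 67.5. The nearest TSS was that of Ccr7 for 2 of them and that of the chromatin remodelling gene Smarce1 for the site of 67.5. The weakest of these had no summit in either replicate list.

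On chromosome 15, each side held 10 sites. On the Krt80 side 4 motifs pointed toward the cluster and 3 away. The strongest there had a signal of 360 (192 and 169), 30434 bp downstream of the Krt80 TSS. Others of 345, 332 and 312 had their nearest TSS at 6030408B16Rik or the autophagy gene Atg101. Sites within the nuclear receptor gene Nr4a1 were weak, at 21.7 and 14.4. On the Krt18 side only 2 of 10 sites had a motif, 1 in each direction. The strongest, with 382 (209 and 171), lay 7904 bp upstream of the translation factor gene Eif4b without a motif within 50 bp. For 8 sites, with signals from 13.8 to 213, the nearest TSS was that of the tensin gene Tns2. The chromosome 16 cluster had 2 sites on its Krtap24-1 side, near Cldn8 and Krtap24-1 (100.8 and 111), both pointing away, and none within 100 kb beyond Krtap11-1, where the gap to the next site was 241 kb.

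Over all edges 19 of 29 motifs (65.5%, interval 47.35 to 80.06) pointed toward the clusters, and without the Krt42 side 8 of 15 did (53.3%). The interval contains an even split of 50%. Of the 113 sites, 76 (67.3%, interval 58.2 to 75.2) carried a motif, against 60.9% of all sites. With the threshold that 0.1% of shifted windows pass, 20 of 113 did (17.7%), against 17.2% of all sites. Their median percentile of signal was 58.5, where 50 is the middle of the list. Neighbouring motif-bearing sites at most 2 kb apart formed 10 pairs, of which 3 pointed apart, 2 together and 5 the same way; over the genome the shares were 24.6%, 18.4% and 57.0%.

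**Figure D4:**
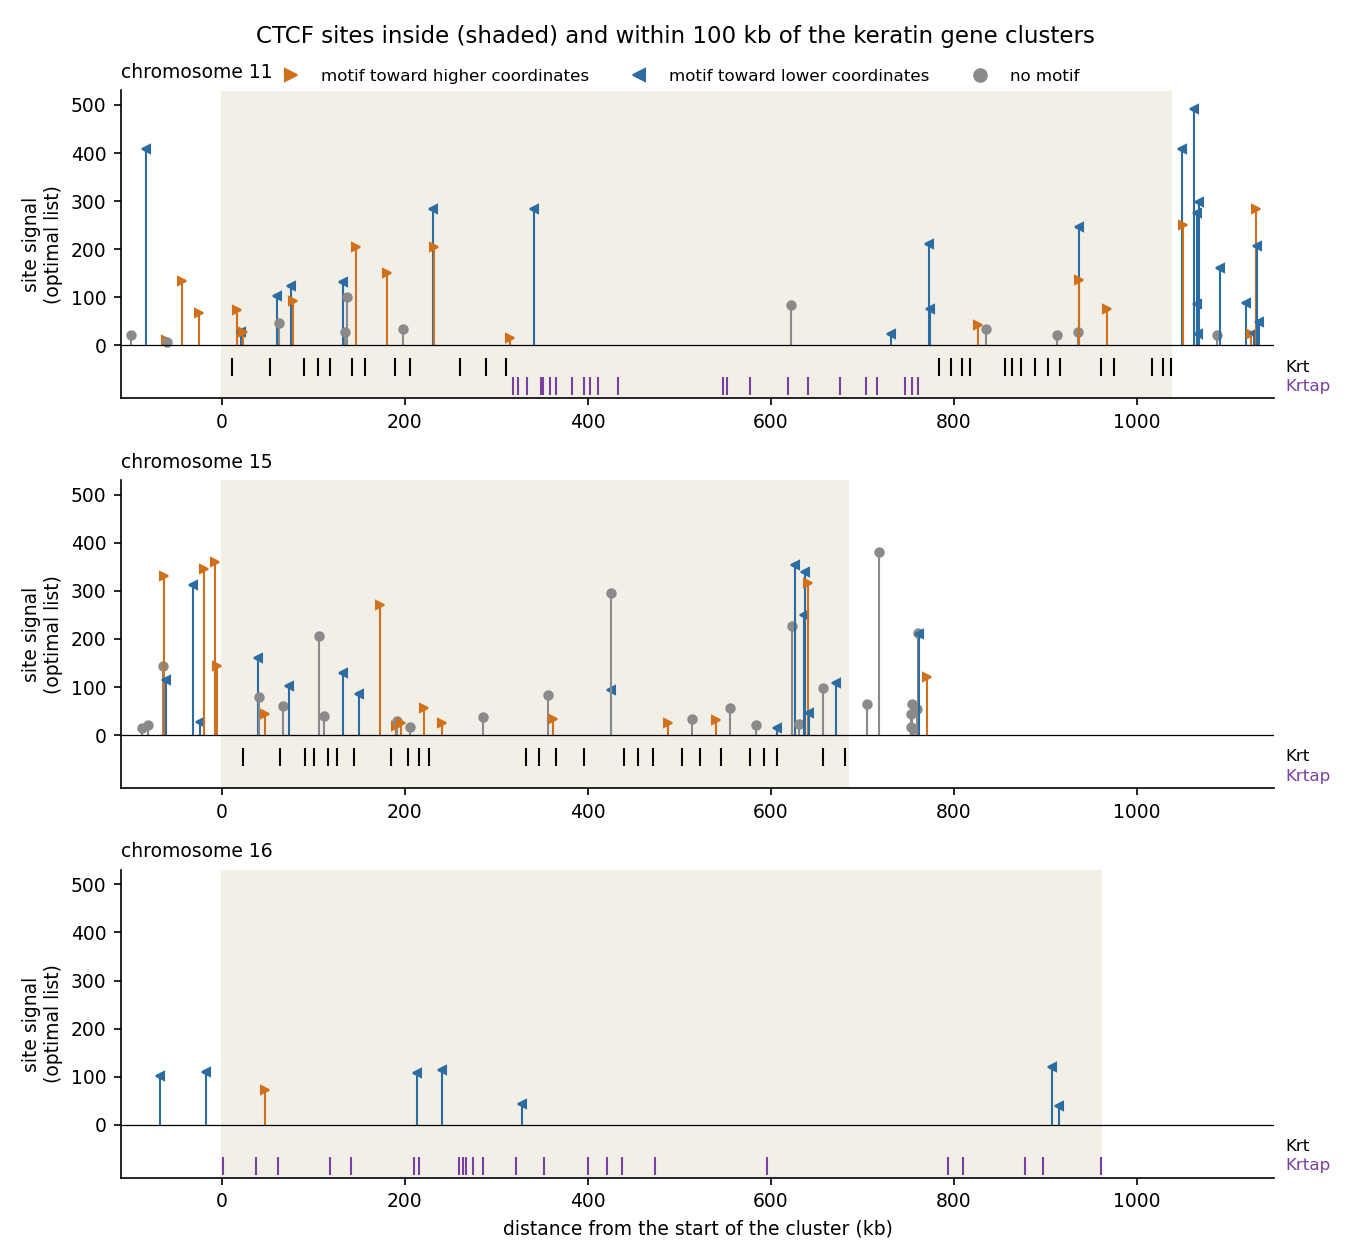
Optimal-list signal (y axis) of every CTCF site by distance from the start of each cluster in kb (x axis), with the clusters shaded and 100 kb shown on each side. Triangles show the direction of the motif and grey circles sites without one, ticks under each axis mark TSSs of Krt (black) and Krtap (purple) genes, and the long stretches with purple ticks and no sites are those of chromosomes 11 and 16.

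Many sites of the type II cluster lay in coding sequence. On chromosome 15, 12 of 36 sites inside the cluster (33.3%) lay in the coding sequence of a keratin, while coding sequence of any gene took up 6.70% of its bases. On chromosome 11 it was 2 of 28 sites (7.14%, with 5.72% of bases coding), and on chromosome 16 none of 6. Over the genome 3.63% of sites lay in coding sequence, which took up 1.37% of bases. That several of the keratin sites lay in the same exon of different genes was noticed after the sites had been listed, so what follows is a description.

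Of the 12 sites, 6 lay in exon 7 of 9 of their genes, and they were weak to moderate. The cluster has 26 members, and the share of its coding bases in this exon was not measured. Krt75, a keratin of the hair companion layer, had 55.7 (replicates 30.4 and 24.3), Krt5, the type II keratin of basal cells, had 34.6 (21.5 and 7.26) and Krt77 had 33.8 (18.9 and 12.9). Krt76, a keratin of the palate, had 30.6 (22.7 and 5.37), the hair keratin Krt82 had 25.2 (13.6 and 10.2) and Krt79 had 20.9 (10.5 and 10.4). The Krt5 and Krt76 sites were uneven between replicates and were not in the conservative list, while the other 4 were. The 2 coding sites of type I keratins lay in exon 6 of 8, in Krt20 with a signal of 34.04 (24.1 in replicate 1 and no summit in replicate 2) and in Krt28, a keratin of the inner root sheath, with 27.3 (8.997 and 17.7).

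Another shared place was the last exon of neighbouring hair keratins, which encodes the tail. Krt86 had a site of 129 (replicates 60.3 and 67.2) in exon 9 and Krt81 one of 40.4 (19.4 and 21.6) in its own exon 9. Their 60 bases were 68.3% identical. The third copy, in Krt83, was 65% identical to that of Krt86 and had no site, the nearest lying 5966 bp away. The best matches in Krt87 and Krt88 were 51.7% and 46.7% identical to it. They did not lie wholly within an exon and had no site. The 3 stretches of exon 9 are shown together since they differ within the motif. Here capitals mark the match of Krt86 and the bases aligned to it in Krt81 and Krt83.

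Krt86, chr15:101479437-101479496: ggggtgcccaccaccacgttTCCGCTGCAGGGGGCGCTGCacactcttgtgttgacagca

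Krt81, chr15:101459453-101459512: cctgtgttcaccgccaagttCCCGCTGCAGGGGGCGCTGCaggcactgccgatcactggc

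Krt83, chr15:101485433-101485492: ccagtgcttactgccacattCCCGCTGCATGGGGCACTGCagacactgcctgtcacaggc

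From Krt86, Krt81 differs in these 20 bases by T1C, and Krt83 by T1C, G10T and G16A. The scores were 10.6 for Krt86, 9.85 for Krt81 and -1.40 for Krt83, where the threshold was 10.5. The remaining coding sites of the chromosome 15 cluster were in Krt7, Krt78, Krt90 and Krt88. That of Krt90, a type II epithelial keratin, also lay in exon 9 of 9. The one in the final exon of Krt88 was the strongest coding site of the cluster at 207 (125 and 80.4).

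Related genes were counted for comparison, from a list of other intermediate filament genes, which build filaments mainly of other cell types or the nuclear lamina, and a list of junction genes. Of 15 other intermediate filament genes 6 (interval 19.8 to 64.3%) had a site within 1 kb, the strongest at Gfap (352) and Synm (228). Of 18 genes of desmosomes and hemidesmosomes, the junctions on which keratin filaments end, 6 (interval 16.3 to 56.3%) had one, and their median distance to a site was 10.2 kb, against 6.70 kb over all genes. The strongest were at Plec, which links filaments to hemidesmosomes (262), and at Jup, a desmosome plaque gene (109). Both intervals contain the 26.6% of all genes, and no difference from the keratins was tested.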

How the data were processed

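CTCF ChIP-seq of 2 replicates in 1 group was deposited as 5 narrowPeak lists on mm10: 1 per replicate, 1 of the pooled reads, and an optimal and a conservative list thresholded by IDR, per the deposited README. The signal values are the authors' enrichment per peak, deposited unscaled between lists; the deposited summit offset (other values, in bp) was added to the peak start. Aligner, peak caller and depth: not given in the sources used here. Of 54953 optimal peaks, 10 off the main chromosomes were left out. A site was given to a gene by the distance of its summit to 1 TSS per gene (GENCODE M21). Cluster members lay less than 1 Mb apart. Odd-numbered autosomes, chromosomes 11 and 15 among them, supplied the 3000 strong sites behind the motif matrix, and 1% of windows shifted by 1 kb passed its threshold; it was tested on simulated data. Replicate signals were taken from the nearest summit within 50 bp. Sequence was read from GRCm38 and the tail stretches were aligned without gaps; some sequences are not reported here. The members and lists were chosen with earlier results of these data known. Genes were named by rule: members with a site within 1 kb, simple epithelial keratins, outermost members, genes nearest to edge sites and to the 5 strongest sites inside each cluster, the members nearest the 1 kb limit and farthest from a site, and the 2 strongest of each partner list; genes of the coding-sequence description were chosen after their values were seen. Python 3.11.15 with numpy 2.4.6, pandas 2.3.3, scipy 1.17.1 and numba 0.67.0 was used. Alternatives were other lists, windows, TSS sets, cluster and edge limits, motif settings and single replicates.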

Additional observations from a re-analysis of the deposited data

How the results depend on the processing

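No paired analysis was possible because there is 1 group and nothing was tested. Of 46 alternatives over 7 results, 34 stayed near the reported value. Without replicate 1 or without replicate 2, Krt genes with a site stayed at 2 and Krtap genes at 0, and the ranges were: cluster sites 68 to 72, edge sites 38 to 43, the motif share 67.0 to 72.6% and the median percentile 57.5 to 59.3. Krt genes came to 0 with the strongest 10000 sites, where 4.28% of all genes had a site. They came to 1 with the strongest pooled peaks (26.5% of all genes) and to 9 within 5 kb (44.8%). Krtap genes came to 6 within 5 kb. With the whole pooled list, chosen after seeing the data, Krt and Krtap genes came to 13 and 4, against 62.1% of all genes. In the conservative list and in replicate 2 alone Krt87 took the place of Krt78. The strongest 10000 sites left 14 sites inside the clusters and 15 at the edges, with a motif share of 82.8%. Edges of 50 kb and 200 kb held 17 and 81 sites. A threshold passing 0.1% of shifted windows gave a motif share of 17.7%. Leaving out the Krt42 side for motif direction was also chosen after seeing the data. Cluster sites were 69 in the conservative list. No read counts were used, so the depth behind weak sites is unknown.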
